A study of Mus musculus with 3 samples.

Results

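The genes described here make cholesterol, sense it and move, store or oxidise it. Of 33 listed genes, 31 were measured, among 18865 genes measured on the arrays. The values came from 3 Affymetrix arrays hybridised with RNA of GFP-positive bone marrow cells. The C57BL/6 mice carry GFP under the promoter of nestin, a reporter that marks a rare stromal population around marrow vessels. Cells were sorted by flow cytometry straight after isolation, without culture. The 3 arrays form 1 group of the same genotype and strain, with no treatment named and no GFP-negative or other control group, and the age of the mice is not given in the sources used here. Whether separate mice or sorts lie behind the 3 replicates is not stated in the labels, so the spread that the p-values rest on may be technical only.

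A gene was measured when at least 4 probesets carried its symbol, current or former, and no other symbol. On each array those probesets were summarised by their median, on the log2 scale. The 31 genes had 655 probesets, between 7 and 83 a gene with a median of 15. Acat2, the thiolase of the first step, had no probeset that named it alone. Ch25h, which hydroxylates cholesterol, had 3 probesets. Msmo1 was found through 10 probesets that carried its former symbol.

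Cells build cholesterol from acetyl-CoA through mevalonate, farnesyl pyrophosphate, squalene and lanosterol. When membranes of the endoplasmic reticulum hold little sterol, Scap carries the SREBP transcription factors to the Golgi, where they are cut and released to switch on the enzymes of synthesis. Insig proteins hold Scap back when sterol is plentiful, and oxidised sterols activate the liver X receptors, which raise cholesterol export. Marrow stromal cells lie beside adipocytes and blood sinusoids, both of which handle lipid.

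With no second group, a gene was called above background when its values exceeded a threshold measured on the same arrays. The threshold was the 95th percentile of 346 olfactory, vomeronasal and bitter taste receptor genes, here the chemosensory threshold, at 5.40, 5.57 and 5.59 on arrays 1, 2 and 3. A stricter threshold was the 95th percentile of 66 genes listed as restricted to other tissues, at 6.47, 6.55 and 6.63. Of these 66 genes 8, or 12.1%, were themselves called above the chemosensory threshold, where 52.2% of all genes were. Calls were made with limma, one-sided, at a p below 0.05 after Benjamini-Hochberg adjustment over all genes. The margin of a gene is its mean difference from the threshold over the 3 arrays. Probes differ in affinity, so a margin is not an order of transcript levels between genes, and it served only to choose which genes of a list to name.

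Over all genes Pearson's r between arrays lay between 0.933 and 0.946, across genes, which are not independent replicates. The labels name the cells only by GFP and bone marrow, and 12 of 12 perivascular stromal markers were called above both thresholds. Among them were Cxcl12 (11.75 ± 0.14, SD, n = 3) and Cdh11 (11.63 ± 0.17). Adipocyte markers were called in 8 of 11 cases, with Adipoq and Lpl among them, and osteoblast markers in 9 of 9, with Ibsp and Spp1. For these counts the share of all genes was 52.2%, and the genes named are the 2 of each list with the largest margin. Blood cell markers were called in 6 of 11 cases for neutrophils (S100a8 and Camp), or 54.5%, near that share. Erythroid markers gave 3 of 8 (Hbb-b1 and Epor), or 37.5%, below it. Uncalled were, among others, the neutrophil markers Ly6g and Mmp8 and the erythroid markers Rhag and Klf1. Pan-leukocyte markers gave 3 of 13 (Lcp2 and Rac2), lymphocyte markers 2 of 9 (Tcf7 and Pax5) and macrophage markers 2 of 12, with Lyz2 called and Mrc1 not. Schwann cell markers gave 3 of 7 (S100b and Sox10) and hepatocyte markers 1 of 11, with Apoa2 called and Ttr not. Endothelial markers, called in 14 of 17 cases, differed between the arrays, with medians of 7.05, 6.01 and 7.62 on arrays 1, 2 and 3.

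The upstream sequences of 4 members are shown for 2 kinds of letters known from SREBP target promoters, of which 1 sequence holds both and the others only the CCAAT box. A sterol regulatory element was searched as TCACNCCAC and the CCAAT box of the cofactor NF-Y as CCAAT, both on either strand, in the 250 bases before each gene start of the RefSeq table (GRCm38.p6). The table held 26 of the 33 listed genes, 5 of them with several starts. Shown is Hmgcs1, the only 1 of these 26 members with a match to the letters of the sterol regulatory element. Also shown are Insig1 and Soat1, both called above both thresholds, and Idi1, which was below the chemosensory threshold on all 3 arrays. Hmgcs1 is from chr13:119690101-119690350, Insig1 from chr5:28071162-28071411 and Idi1 from chr13:8885356-8885605, all on the plus strand, and Soat1 from chr1:156474329-156474578 on the minus strand. Each is printed 5′ to 3′, with the CCAAT boxes and, in Hmgcs1, also the sterol regulatory element in capitals. A box on the opposite strand reads ATTGG, and in Hmgcs1 the element reads TCACCCCAC.
Hmgcs1: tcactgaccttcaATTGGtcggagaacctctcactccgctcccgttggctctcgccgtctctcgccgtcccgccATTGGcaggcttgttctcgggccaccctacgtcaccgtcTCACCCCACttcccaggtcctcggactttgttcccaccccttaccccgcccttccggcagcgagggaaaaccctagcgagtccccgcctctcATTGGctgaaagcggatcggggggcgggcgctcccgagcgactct
Insig1: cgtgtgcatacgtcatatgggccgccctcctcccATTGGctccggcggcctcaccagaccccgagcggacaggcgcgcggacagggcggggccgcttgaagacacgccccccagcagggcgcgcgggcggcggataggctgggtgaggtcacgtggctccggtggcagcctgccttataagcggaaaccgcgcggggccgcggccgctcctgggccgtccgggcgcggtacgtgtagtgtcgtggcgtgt
Soat1: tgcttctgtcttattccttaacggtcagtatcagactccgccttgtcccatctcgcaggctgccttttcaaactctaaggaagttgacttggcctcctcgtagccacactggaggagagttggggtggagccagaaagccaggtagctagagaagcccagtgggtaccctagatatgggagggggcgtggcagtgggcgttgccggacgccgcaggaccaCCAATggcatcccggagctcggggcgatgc
Idi1: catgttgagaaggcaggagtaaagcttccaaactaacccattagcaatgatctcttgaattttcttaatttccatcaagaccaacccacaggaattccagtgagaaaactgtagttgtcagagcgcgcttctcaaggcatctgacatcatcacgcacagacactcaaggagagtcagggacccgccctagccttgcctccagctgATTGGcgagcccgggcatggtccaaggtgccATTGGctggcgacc
Hmgcs1 had 3 CCAAT boxes, Idi1 had 2, and Insig1 and Soat1 had 1 each, none of them overlapping a sterol regulatory element.

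A CCAAT box stood upstream of 22 of the 26 members, or 84.6%, compared with 37.5% of all 27025 genes in the table. The sterol regulatory element stood upstream of 1 member, or 3.85%, compared with 1.22% of all genes. The GC box GGGCGG, bound by Sp factors and searched in the same way, stood upstream of 22 members, or 84.6%, compared with 35.4%. It overlapped no CCAAT box in the 4 sequences shown. Of the 22 members with a CCAAT box, all measured, 17 were called above the chemosensory threshold, where 52.2% of all genes were. Of the 4 members without one, 2 were measured and both were called. The share called among all genes with a CCAAT box was not counted, and a link between box and call was not tested. These matches describe letters in a window and not bound sites. An element with other letters, or outside the 250 bases, would be missed, so a missing match does not show that a gene lacks one.

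Most of the sterol genes gave a signal above the chemosensory threshold, and fewer passed the stricter one. Of the 31 genes 23 were called, or 74.2%, where 52.2% of all genes were called. Their median margin was 1.0 on the log2 scale, compared with 0.55 over all genes. Above the other-tissue threshold were 10 genes, or 32.3%, where 24.9% of all genes were called. That difference depended on the setting. With probesets averaged by their mean 8 of 31 passed it, a share like the 25.8% of all genes. With at least 8 probesets 11 of 30 passed it, where 34.3% of all genes did. With the 99th percentile of the receptor genes as the threshold, 9 sterol genes were called, where 23.2% of all genes were. Those 9 were Nsdhl, Sc5d, Insig1, Insig2, Scap, Srebf1, Abca1, Soat1 and Mylip. With no minimum number of probesets 14 of 32 were called, where 33.6% of all genes were, and Hmgcs1, Mvk, Pmvk, Mvd, Ebp, Dhcr7, Stard4, Abcg1 and Lcat lost the call. Without array 1 the count above the other-tissue threshold was 5 of 31, a share below the 21.2% of all genes called there.

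**Figure D1:**
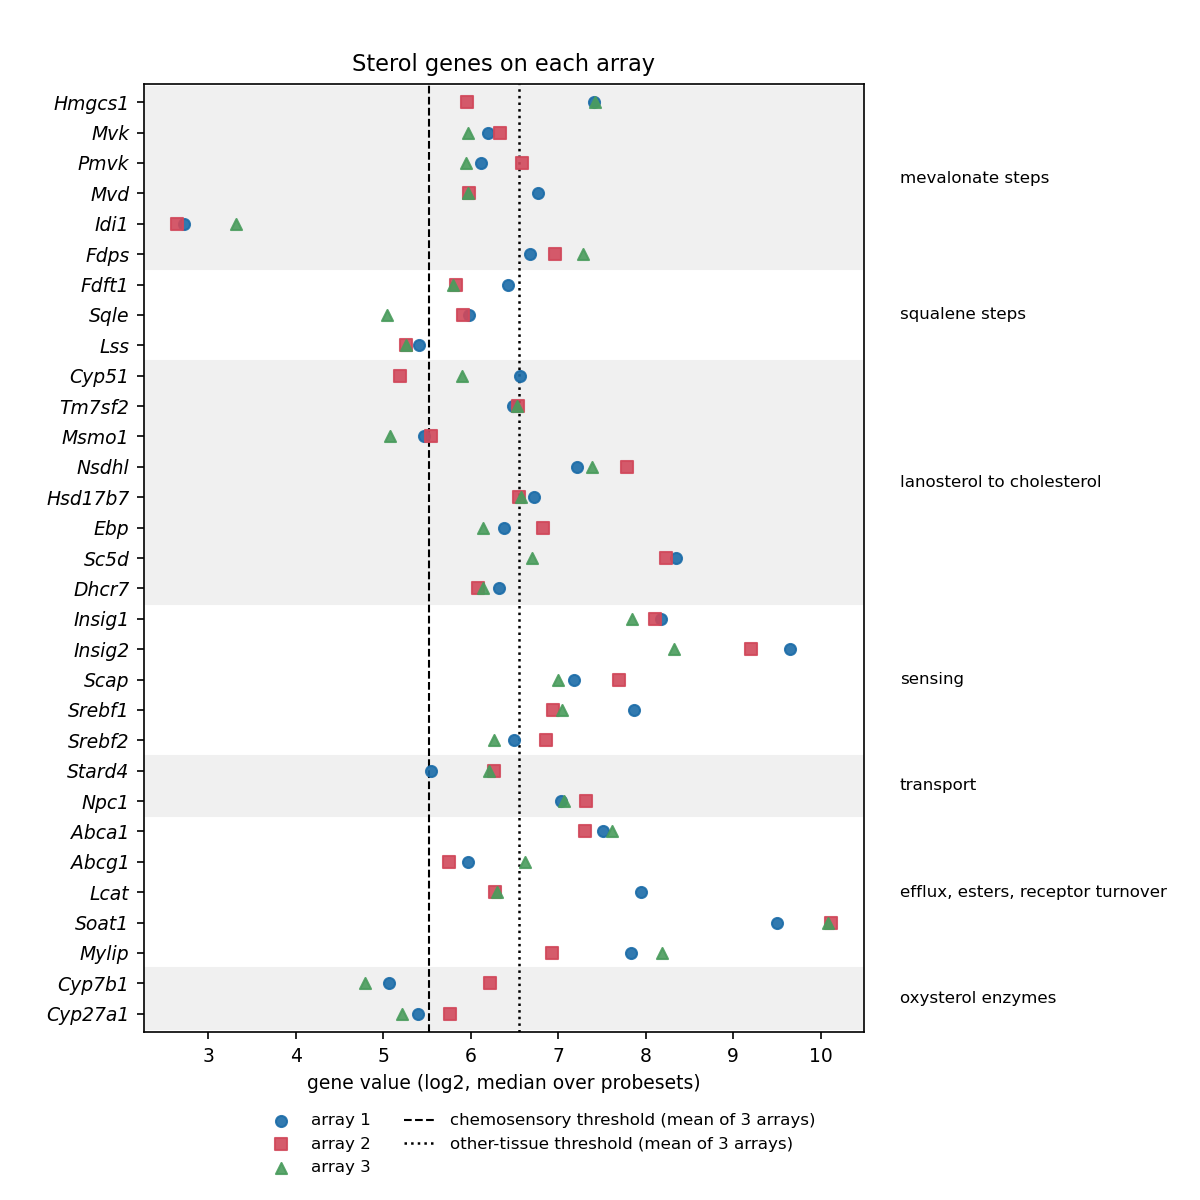
Value of each of the 31 measured sterol genes on arrays 1, 2 and 3 (x axis, log2, median over probesets), ordered by pathway step from top to bottom, with the mean of the chemosensory threshold (dashed, 5.52) and of the other-tissue threshold (dotted, 6.55). The values of Soat1 and Insig2 lie to the right of both lines on all 3 arrays, and those of Idi1 lie to the left of both.

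Of the first enzymes, which lead from acetyl-CoA to farnesyl pyrophosphate, 5 of 6 were called and 0 passed the other-tissue threshold in limma's test. The shares of all genes were 52.2% and 24.9%. Hmgcs1, the synthase that makes HMG-CoA, had 7.41, 5.95 and 7.43 on arrays 1, 2 and 3. Array 2 was the low one, and all 3 values lay above the chemosensory threshold. Its margin was 1.41 (adjusted p = 0.00414). Fdps, which makes farnesyl pyrophosphate, had 6.67, 6.96 and 7.28, so its arrays differed less. Its margin was 1.45 (adjusted p = 0.000165), and it missed the other-tissue threshold with an adjusted p of 0.0824.

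The kinases and the decarboxylase of the mevalonate steps stood closer to the threshold. Mevalonate kinase (Mvk) had 6.19, 6.34 and 5.97, with a margin of 0.64 (adjusted p = 0.00922). Phosphomevalonate kinase (Pmvk) had 6.11, 6.59 and 5.95, with a margin of 0.69 (adjusted p = 0.00934). The decarboxylase Mvd had 6.77, 5.98 and 5.97, with a margin of 0.72 (adjusted p = 0.0203). All 3 values of each of these genes lay above the chemosensory threshold. The call of Mvd was lost without array 1 (margin 0.39, adjusted p = 0.0802) and that of Pmvk without array 2 (adjusted p = 0.0568).

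Idi1, the isomerase that balances the C5 building blocks between Mvd and Fdps, was unlike its neighbours in the pathway. It had 2.73, 2.64 and 3.32, and it was the 1 member below the chemosensory threshold on all 3 arrays. Its mean lay 2.62 under the threshold. The medians of the receptor genes themselves were 3.40, 3.41 and 3.33. None of its 15 probesets was called, and their means over the arrays ran from 1.42 to 7.39. A missing call does not show that a transcript was absent.

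The enzymes from farnesyl pyrophosphate to lanosterol gave 0 of 3 calls by limma, where 52.2% of all genes were called. Before adjustment 1 of these 3 enzymes had a p below 0.05, and 1 exceeded the threshold on each array. Squalene synthase (Fdft1) had 6.43, 5.83 and 5.80, all above the threshold, and missed the call with an adjusted p of 0.0525. It was called with probesets averaged by their mean (adjusted p = 0.00496), with at least 8 probesets (adjusted p = 0.0359), with symbols as annotated (adjusted p = 0.0490), with limma's trend (adjusted p = 0.0487) and without array 2 (adjusted p = 0.0397). It was not called without array 1 (margin 0.23, adjusted p = 0.226) or without array 3 (adjusted p = 0.0566), and with at least 1 probeset its margin was -0.019. Squalene epoxidase (Sqle), a rate-limiting oxygenase, had 5.98, 5.91 and 5.05. Array 3 lay below the threshold and the others above it (margin 0.12, adjusted p = 0.504). With the mean over probesets Sqle was called (adjusted p = 0.0297), while its margin turned to -0.10 without array 1 and to -0.39 with at least 1 probeset. Lanosterol synthase (Lss), which closes the ring system, had 5.41, 5.27 and 5.26, within 0.33 of the threshold on each array (adjusted p = 1).

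Of the 8 enzymes that turn lanosterol into cholesterol, 6 were called, or 75%, where 52.2% of all genes were. The other-tissue threshold was passed by 2, or 25%, a share like the 24.9% of all genes. Those 2 were Nsdhl and Sc5d. Nsdhl, a dehydrogenase in the removal of the C4 methyl groups, had 7.22, 7.78 and 7.39, with a margin of 1.94 (adjusted p = 4.1e-05). Sc5d, the desaturase that introduces a double bond late in the pathway, had 8.35, 8.23 and 6.70. Array 3 stood apart from the other arrays, and the margin was 2.24 (adjusted p = 0.000625).

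Another 4 enzymes after lanosterol passed the chemosensory threshold only. The sterol reductase gene Tm7sf2 had 6.49, 6.54 and 6.53, the narrowest range among the 31 genes. The reductase Hsd17b7 had 6.73, 6.55 and 6.57, and the isomerase gene Ebp 6.38, 6.83 and 6.15. The final reductase Dhcr7 had 6.32, 6.09 and 6.15. Their margins were 1.0, 1.09, 0.93 and 0.66 in that order, with adjusted p between 0.000663 and 0.00780.

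Cyp51 and Msmo1, which act in the removal of methyl groups from lanosterol, did not pass. Cyp51 had 6.56, 5.20 and 5.90, with array 2 below the threshold (margin 0.37, adjusted p = 0.212). It was called without array 2 (adjusted p = 0.0178), and its margin turned to -0.034 without array 1 (adjusted p = 0.865). Msmo1 had 5.47, 5.54 and 5.08, with array 1 above the threshold and the others below it (adjusted p = 1). Its margin was -0.16, and 0.017 without array 3.

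The genes that sense sterol were all called, and 4 of these 5 also passed the other-tissue threshold. The shares of all genes were 52.2% and 24.9%. Insig2, one of the retention proteins of the endoplasmic reticulum, had 9.65, 9.21 and 8.33, with a margin of 3.54 (adjusted p = 2.47e-05). Insig1, the form that SREBP itself induces, had 8.18, 8.11 and 7.85, with a margin of 2.52 (adjusted p = 1.36e-05). Both were lowest on array 3, and all values of both lay above both thresholds. The escort protein gene Scap had 7.18, 7.69 and 7.0, with a margin of 1.77 (adjusted p = 0.000109).

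The transcription factor genes were called as well. Srebf1, whose products favour fatty acid genes, had 7.87, 6.94 and 7.04, with a margin of 1.76 (adjusted p = 0.000391). Srebf2, whose product favours cholesterol genes, had 6.49, 6.86 and 6.26, with a margin of 1.02 (adjusted p = 0.00146). Srebf2 passed the chemosensory threshold only, and its mean difference from the other-tissue threshold was -0.01. It had 83 probesets, the most of any member.

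Both transport genes were called, where 52.2% of all genes were. Npc1, the lysosomal protein that lets cholesterol leave the lysosome, had 7.03, 7.32 and 7.07, with a margin of 1.62 (adjusted p = 7.55e-05), and it passed the other-tissue threshold. Stard4, which carries sterol through the cytosol, had 5.55, 6.26 and 6.21, with array 1 near the threshold. Its margin was 0.49 (adjusted p = 0.0337), and the call was lost without array 2 (adjusted p = 0.151) and without array 3 (adjusted p = 0.131).

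Genes of cholesterol export, storage and receptor turnover were called in 5 of 5 cases, and 3 of them passed the other-tissue threshold. The shares of all genes were 52.2% and 24.9%. Soat1, which esterifies cholesterol for storage, had 9.50, 10.12 and 10.08. All its values lay at least 3.04 above the other-tissue threshold, and the margin over the chemosensory threshold was 4.38 (adjusted p = 1.82e-06). Abca1, which loads cholesterol onto apolipoproteins, had 7.51, 7.31 and 7.61, with a margin of 1.96 (adjusted p = 3.55e-05). Mylip, a ubiquitin ligase that removes lipoprotein receptors and a liver X receptor target, had 7.84, 6.93 and 8.19, with a margin of 2.13 (adjusted p = 0.000198).

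Abcg1 and Lcat passed the chemosensory threshold only. Abcg1, an exporter to high-density lipoprotein, had 5.97, 5.76 and 6.63. Its margin was 0.60 (adjusted p = 0.0249), and the call was lost without array 1 (adjusted p = 0.0761) and without array 3 (margin 0.38, adjusted p = 0.146). Lcat, which esterifies cholesterol in lipoproteins and is known mainly as a liver product, had 7.94, 6.28 and 6.30. Array 1 stood apart from the other arrays, and the margin was 1.32 (adjusted p = 0.0101). Without array 1 the margin was 0.71 (adjusted p = 0.0155), and with at least 1 probeset the call was lost (adjusted p = 0.108).

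Of the oxysterol enzymes, 0 of 2 measured were called by limma, where 52.2% of all genes were called. Before adjustment 0 of these 2 enzymes had a p below 0.05, and 0 exceeded the threshold on each array. Cyp7b1, which clears oxysterols, had 5.07, 6.22 and 4.80, with array 2 alone above the threshold. Cyp27a1, a mitochondrial sterol hydroxylase, had 5.40, 5.76 and 5.22, also with array 2 alone above it and array 1 at the threshold. Without array 3 the margins of both turned above 0, to 0.16 and 0.092, with no call. The 3 probesets of Ch25h had means of 3.70, 4.33 and 7.11 over the arrays, and 0 of them were called in limma's test of probesets. The highest of them had 7.0, 6.25 and 8.08 on arrays 1, 2 and 3.

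**Figure D2:**
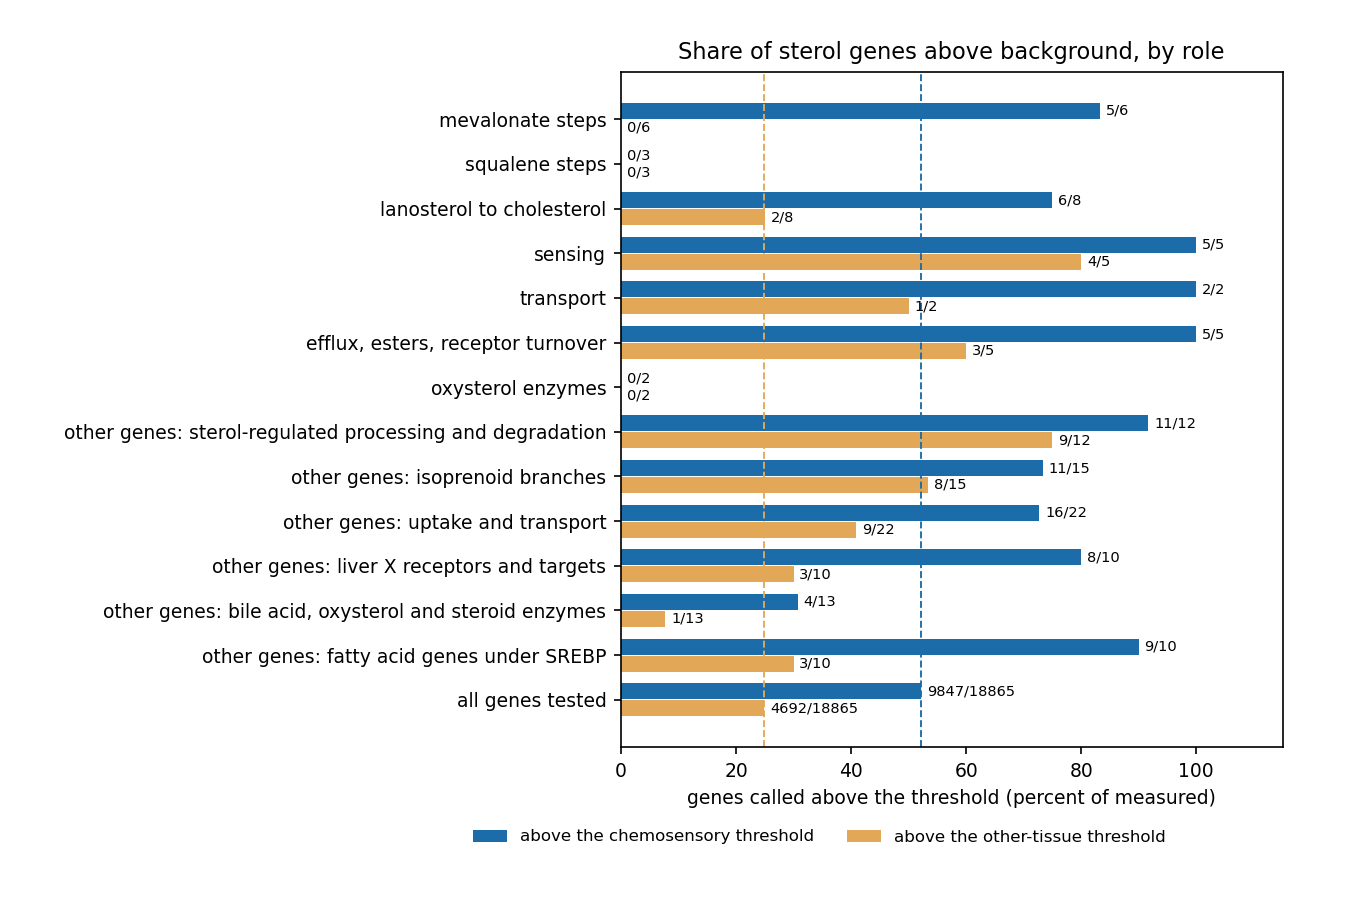
Percent of measured genes called above the chemosensory threshold (blue) and the other-tissue threshold (yellow) for each role of the sterol genes, for the lists of further pathway genes and for all 18865 genes, with counts at the bar ends and dashed lines at the shares of all genes. Sensing genes reach 5 of 5 and 4 of 5, squalene steps 0 of 3 in both.

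Divided by role, the synthesis enzymes gave 11 of 17 calls and the sensing and handling genes 12 of 14. These are 64.7% and 85.7%, where 52.2% of all genes were called. Above the other-tissue threshold the counts were 2 of 17 and 8 of 14, or 11.8% and 57.1%, where 24.9% of all genes were called. The share of the synthesis enzymes thus lay below that of all genes at the stricter threshold. The median margins over the chemosensory threshold were 0.69 and 1.69. The difference between these groups was not tested, since probe affinity differs between genes.

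Single probesets of the sterol genes were called about as often as those of other genes. At this level the threshold was the 95th percentile of the receptor probesets, at 6.95, 7.14 and 6.95 on arrays 1, 2 and 3. Of the 655 member probesets 149 were called, or 22.7%, where 21.4% of all probesets with 1 symbol were called. The calls were unevenly spread over the members. Insig2 had 11 of 13 probesets called and Soat1 23 of 28, the only members with more than 50% called. Over all genes 10.8% had more than 50% of their probesets called.

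Insig1 had 5 of 10 probesets called, Scap 11 of 32, Npc1 11 of 36, Abca1 23 of 79 and Srebf1 9 of 32. The synthesis enzymes together had 30 of 257, or 11.7%, and the sensing and handling genes 119 of 398, or 29.9%. Idi1, Fdft1, Sqle and Cyp7b1 had none called by limma among 15, 16, 15 and 12 probesets. Of these, 1 of Idi1, 3 of Fdft1, 0 of Sqle and 0 of Cyp7b1 lay above the threshold on all 3 arrays.

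**Figure D3:**
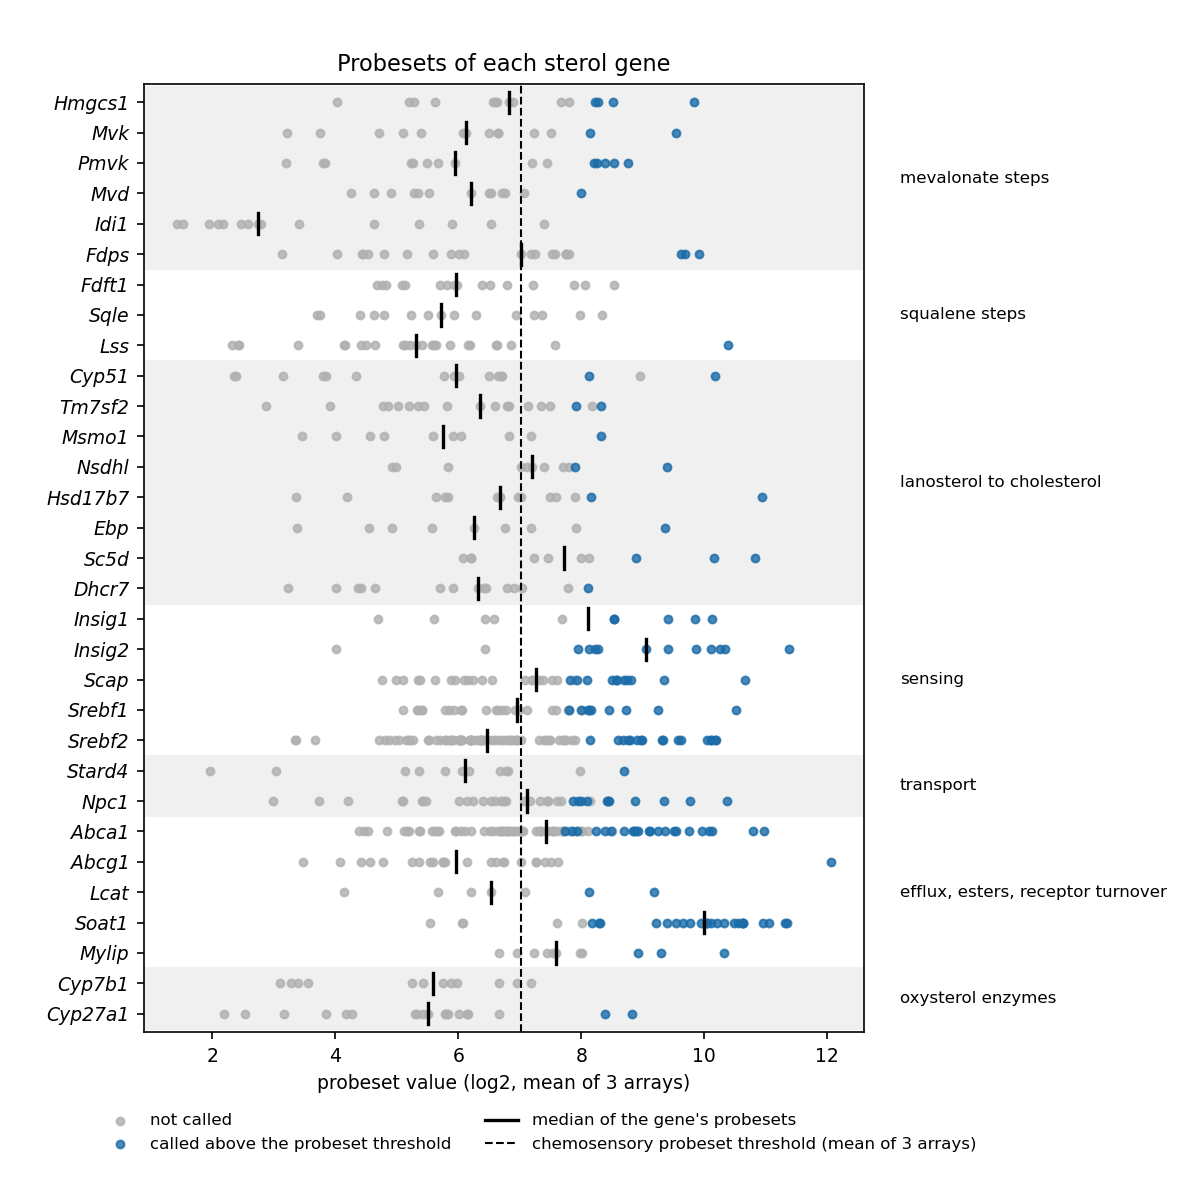
Each probeset of the 31 measured sterol genes (points, x axis, mean of 3 arrays on the log2 scale), blue where it was called above the probeset threshold (dashed, mean 7.02) and grey where it was not, with a bar at the median of the gene's probesets. Most points of Soat1 and Insig2 are blue, while the points of Idi1 are all grey and run from 1.42 to 7.39.

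Further genes of the same pathways were called at a like rate over all lists, with 1 list well under the others. Of 86 such genes, listed by role, 82 were measured and 59 were called, or 72%, where 52.2% of all genes were called. Above the other-tissue threshold were 33, or 40.2%, where 24.9% of all genes were called. Genes that process SREBP or degrade its sterol-regulated partners gave 11 of 12 calls. They included the ATPase gene Vcp (9.77 ± 0.07, SD, n = 3) and Erlin2 (8.62 ± 0.12), whose product binds Insig in the endoplasmic reticulum. The uncalled member was Tmem97, a sterol-responsive membrane protein gene, with 8.33, 5.16 and 5.69 on arrays 1, 2 and 3 (adjusted p = 0.158), with array 2 below the threshold and array 1 well above the other arrays.

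Genes that use isoprenoids made from mevalonate gave 11 of 15 calls, where 52.2% of all genes were called. Zmpste24, the protease that trims farnesylated prelamin, had 9.44 ± 0.35 (SD, n = 3) and Rabggtb, a subunit that prenylates Rab proteins, 8.73 ± 0.28. Pdss1, which builds the tail of coenzyme Q, was not called, with a margin of -1.41. Uptake and transport genes gave 16 of 22 calls, among them the sterol carrier gene Scp2 (9.39 ± 0.24) and Osbpl9 (9.10 ± 0.04). Nceh1, an ester hydrolase gene, was not called, with a margin of -0.42.

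The liver X receptor list gave 8 of 10 calls, with Lpcat3 (8.43 ± 0.39, SD, n = 3) and the phospholipid transfer gene Pltp (8.33 ± 0.52) called and the exporter gene Abcg5 (4.58 ± 0.27) not. Fatty acid genes under SREBP gave 9 of 10, among them the desaturase genes Scd1 (7.50 ± 0.66) and Scd2 (7.23 ± 0.24), with the elongase gene Elovl6 (4.82 ± 0.35) uncalled. Enzymes of bile acids, oxysterols and steroids were called in 4 of 13 cases, or 30.8%, below the 52.2% of all genes. They included Hsd3b7 (7.07 ± 0.24) and Cyp39a1 (6.72 ± 0.54), while the liver reductase gene Akr1d1 had 3.44 ± 0.34.

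Between the arrays the sterol genes varied somewhat more than genes in general. The median SD over the 3 arrays was 0.35 among the 31 genes and 0.27 over all genes. A range above 1 on the log2 scale was found in 7 of them, or 22.6%, where 15.8% of all genes had one. These were Hmgcs1, Cyp51, Sc5d, Insig2, Lcat, Mylip and Cyp7b1. For the comparison by array, each gene's difference from its own mean was taken and the array's median over all genes removed. The median differences of the 31 genes were then 0.01, 0.06 and -0.16 on arrays 1, 2 and 3, where all genes have 0 by construction. Each array is 1 sample, so these differences have no replicate and no test.

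The array with the lowest value differed from gene to gene. The lowest value was on array 1 for 6 genes, on array 2 for 13 and on array 3 for 12, where all genes gave 34.2%, 34.0% and 31.7%. The highest value was on array 1 for 12, on array 2 for 11 and on array 3 for 8, where all genes gave 33.5%, 34.3% and 32.3%. Of the 5 sensing genes 4 were lowest on array 3, the exception being Srebf1. Of the 5 genes of export, storage and receptor turnover 4 were lowest on array 2, the exception being Soat1, which was lowest on array 1. The squalene step genes were all highest on array 1.

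**Figure D4:**
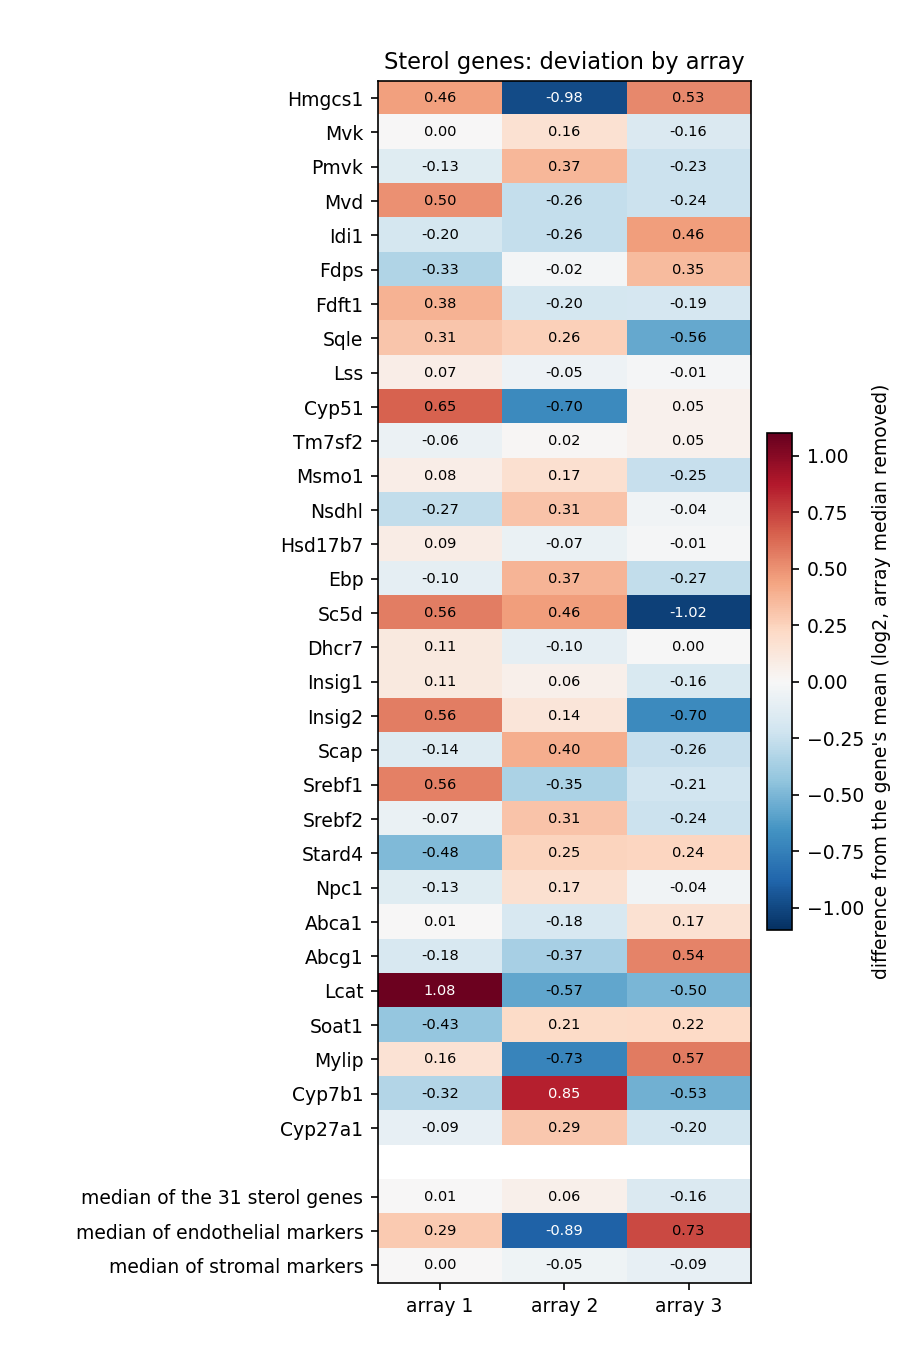
Difference of each sterol gene from its own mean on arrays 1, 2 and 3 (log2, array median over all genes removed, red higher and blue lower), with the medians of the 31 genes and of the endothelial and stromal markers in the bottom rows. Lcat is high on array 1 (1.08), Sc5d low on array 3 (-1.02) and Hmgcs1 low on array 2 (-0.98).

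How far the probesets of a gene followed its array pattern differed among the 7 genes with a wide range. Of the 10 probesets of Sc5d 8 were lowest on array 3, the gene's lowest array, as were 9 of the 13 of Insig2. Of the 11 of Mylip 9 were lowest on array 2, as were 8 of the 15 of Hmgcs1, 4 of the 7 of Lcat and 7 of the 16 of Cyp51. Cyp7b1 had 3 of 12 lowest on array 3. On the highest array of the gene the counts were 4 of 10 for Sc5d, 7 of 13 for Insig2, 7 of 11 for Mylip, 4 of 15 for Hmgcs1, 6 of 7 for Lcat, 8 of 16 for Cyp51 and 6 of 12 for Cyp7b1. In the median gene with a range above 1, 55.6% of the probesets were lowest on the gene's lowest array, and over all genes 43.8%. Probesets of a gene share the same RNA, so they are not replicates.

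Endothelial markers moved with the arrays too. Their median difference was 0.29, -0.89 and 0.73 on arrays 1, 2 and 3, and 16 of 17 were lowest on array 2. The sum of the 17 values was 124.59, 101.63 and 130.91. Cdh5 had 9.14, 6.05 and 9.58, Emcn 8.50, 6.75 and 9.16, and Stab2, the member with the widest range, 8.19, 5.88 and 9.55. No probeset with 1 symbol was at 0 on all 3 arrays. Over the 31 sterol genes the median difference was 0.06 on array 2, and 13 were lowest there, where 34.0% of all genes were. The genes of export, storage and receptor turnover had 0.01, -0.37 and 0.22 on arrays 1, 2 and 3. Of these 5 genes 4 were lowest on array 2 (Abca1, Abcg1, Lcat and Mylip), and Soat1 was lowest on array 1. Hmgcs1, Cyp51, Mylip and Lcat, which had a range above 1, were lowest on array 2. The part of endothelial cells in these values was not tested. In bulk samples fewer cells of a type and less RNA per cell cannot be told apart.

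Stromal markers varied less, with median differences of 0.00, -0.05 and -0.09. Sc5d and Insig2 were lowest on array 3. Lcat was high on array 1 alone, with near values of 6.28 and 6.30 on arrays 2 and 3. Osteoblast markers had 0.33, -0.30 and -0.10, with array 1 highest as for Lcat, and their part in that value was not tested. Hepatocyte markers, the cell type Lcat is best known from, had -0.02, 0.07 and 0.03, and their sums were 53.38, 54.26 and 53.40. Macrophage markers, from cells that also store and export cholesterol, had -0.01, 0.05 and 0.07, although Mrc1 had 8.39, 4.44 and 9.15. Pan-leukocyte markers had -0.22, -0.27 and 0.37, and neutrophil markers -0.29, -0.11 and 0.25, both highest on array 3. Erythroid markers had -0.07, 0.03 and 0.21, with 4 of 8 lowest on array 1 and 2 of 8 on array 2. Among them Hbb-b1 had 10.49, 8.33 and 10.56, low on array 2 like Mrc1 and the endothelial markers. The part of these cells in the array differences of the sterol genes was not tested.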

How the data were processed

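Per the labels' protocols, RNA of sorted cells underwent whole-transcript amplification, conversion to the sense strand and biotin labelling. The authors deposited log2 values for each probeset. The submitters' processing notes name Affymetrix Expression Console 1.1 with RMA, a method that subtracts background, equalises array distributions and combines probes. Its settings and the annotation build were not stated in the sources used here. No scanner files or scan dates were used here, and no read depth applies. The number of arrays limits the precision.

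Of 1256831 probesets, 318760 had 1 symbol in a table of the platform annotation, 6684 had several and 931387 are unnamed here. Former symbols were updated through RefSeq synonyms (GRCm38.p6), which changed 4227 symbols. Genes with at least 4 probesets were kept (18865), with the median as the value. Each gene's values minus the array's threshold were fitted with limma 3.58.1 in R 4.3.3 (intercept only, one-sided test, adjusted p below 0.05), and the same fit was made over probesets. Of 72 listed other-tissue genes 66 were measured. Of the receptor genes 11 of 346 were called. The members, lists, thresholds and tests were chosen with earlier results of these data known. Named were all members, and of each further list the 2 called genes with the largest margin and the 1 with the smallest. Of marker lists the 2 with the largest margin were named, as was the endothelial marker of widest range. Motifs were matched by letters only. Alternatives were the mean over probesets, other minimum numbers of probesets, other thresholds, symbols as annotated, limma's trend, a rule without a test and leaving out each array.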

Additional observations from a re-analysis of the deposited data

How the results depend on the processing

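No paired analysis was possible because the 3 arrays form 1 group. Of the 23 genes called, 19 kept the call without each array in turn. Without each array 21 to 23 of 31 sterol genes were called, where 47.6% to 50.4% of all genes were. Among 82 further pathway genes 56 to 60 were called, with the same shares of all genes. Above the other-tissue threshold were 5 to 9 sterol genes, where 21.2% to 23.9% of all genes were. The lowest count, 5 of 31, came without array 1 and was a share below the 21.2% of all genes there. Of 655 member probesets 106 to 114 were called, where 15.9% to 17.5% of all probesets were. With 2 arrays limma's prior degrees of freedom were 3.52 without array 1, 17.4 without array 2 and 4.96 without array 3, so the fits differ in more than the values left out. The height of the threshold moved the counts most. At the 99th percentile of the background genes 9 sterol genes, 1 above the other-tissue threshold, 31 further pathway genes and 30 member probesets were called, where 23.2%, 4.17%, 23.2% and 5.24% of all genes or probesets were. At the median of the background genes 29 sterol genes passed the other-tissue threshold, where 68.2% of all genes did, and 581 member probesets were called, where 81.8% of all were. With at least 1 probeset a gene, 14 of 32 sterol genes were called, where 33.6% of all genes were. That setting adds receptor genes with few probesets, which moves the threshold, and Ch25h to the genes tested. Counts under the other alternatives, the count of genes lowest on array 2 included, stayed within 1.5 times.

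The margin of some single genes changed sign. At the 99th percentile it became -0.46 for Mvk, -0.40 for Pmvk, -0.38 for Mvd, -0.60 for Fdft1, -0.97 for Sqle, -0.73 for Cyp51, -0.10 for Tm7sf2, -0.0039 for Hsd17b7, -0.17 for Ebp, -0.43 for Dhcr7, -0.081 for Srebf2, -0.61 for Stard4 and -0.50 for Abcg1, since the threshold is higher. At the median, a lower threshold, it became 1.94 for Lss, 1.98 for Msmo1, 1.98 for Cyp7b1 and 2.08 for Cyp27a1. With at least 1 probeset it became -0.019 for Fdft1, -0.39 for Sqle, -0.15 for Cyp51 and -0.031 for Stard4. With the mean over probesets it became 0.18 for Msmo1. Without each array in turn it ran from -0.10 to 0.46 for Sqle (lowest without array 1), from -0.034 to 0.74 for Cyp51 (lowest without array 1), from -0.27 to 0.017 for Msmo1, from -0.56 to 0.16 for Cyp7b1 and from -0.19 to 0.092 for Cyp27a1 (each highest without array 3). The cause of the changes by array and by mean was not tested. Of 370 values of single genes under the alternatives, 314 kept direction and call and 27 changed sign. With the sign kept, 18 lost the call and 11 gained it. Some of the 27 that changed sign also lost or gained the call, and these are not among the 18 and 11.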

Other observations

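In 3 of the 31 sterol genes 1 probeset stood over 2 above all others of its gene on the log2 scale, or 9.68%, where 11.4% of all genes had such a probeset. Abcg1 had a probeset (4709162) with 12.23, 12.04 and 11.92 on arrays 1, 2 and 3, while its next highest had a mean of 7.62. Lss had a probeset (5429119) with 10.20, 10.87 and 10.07, next to a second highest of 7.57. Hsd17b7 had a probeset (4565337) with 11.63, 10.08 and 11.09, next to 8.17. These 3 genes were singled out after their values were seen. The margins of these genes over the chemosensory threshold, from the median over probesets, were 0.60, -0.21 and 1.09 in that order, and neither probe sequences nor positions were used here.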
